A study of Mus musculus with 3 samples.

Results

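The semaphorins, plexins, neuropilins, ephrins and Eph receptors are cell-surface and secreted guidance proteins, and their transcripts were followed across the cell classes of glioma-bearing and normal mouse brainstem. Members were taken by gene symbol (Sema3 to Sema7, Plxna to Plxnd, Nrp1 and Nrp2, Epha and Ephb, Efna and Efnb), which gave 53 of the 32285 features in the deposited tables. They comprise 7 secreted semaphorins, 13 membrane semaphorins, 9 plexins, 2 neuropilins, 9 Eph-A receptors, 5 Eph-B receptors, 5 ephrin-A and 3 ephrin-B ligands. The rule uses symbols alone and no measured value.

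Single cells were profiled with the 10x Genomics 3′ chemistry from the brainstem of 2 mice carrying grafts of DIPG4423, a murine diffuse midline glioma (DMG) line (tumour 1 and tumour 2), and from 1 brainstem without tumour (normal). The grafted animals were untreated B6(Cg)-Tyrc-2J/J mice, an albino strain carrying the Tyrc-2J allele. They were 6 weeks old when 100000 cells were injected, and tissue was collected 3 weeks after injection. The normal brainstem was labelled untreated and tumour-free, and the labels do not give the age of that animal separately. All tissue was perfused with saline, ground, depleted of myelin with magnetic beads and treated with red-cell lysis buffer. The graft is a single cell line, and the files do not mark which cells descend from it.

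Semaphorins signal through plexins, and most secreted semaphorins also need a neuropilin as the ligand-binding subunit of the receptor. Ephrins are membrane-anchored ligands of the Eph receptor tyrosine kinases, so that signalling between these families needs cell contact and can run in both directions. In the brain both systems guide axons and migrating cells during development, and in blood vessels they shape sprouting and the identity of arteries and veins.

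The libraries differed in depth. After filtering and removal of doublets, 10550, 9407 and 3083 cells remained in tumour 1, tumour 2 and normal, with medians of 8783.5, 11297 and 2395 UMIs (unique molecular identifiers, which count RNA molecules) per cell. Before filtering, 26.3% of the normal barcodes exceeded the mitochondrial limit against 9.71% and 9.57% in the tumour libraries, and pairs of libraries shared 13 to 37 barcode sequences. Levels are given as CPM, the UMIs of a gene summed over the cells of a class in a library and scaled to a total of 1000000. Because the 3′ chemistry tags each RNA molecule once, CPM counts molecules and is not scaled by length. Where 3 levels are listed, they are those of the tumour 1, tumour 2 and normal library in this order. Cells were clustered without the 53 members and named from marker lists. The glial progenitor-like class, which carried Pdgfra at 1172 and 1055 CPM and Olig2 at 296 and 252 CPM, held 4381 and 2098 cells in the tumour libraries and 1 cell in the normal library. Neuron-like cells made up 1.6% and 3.3% of the tumour libraries and 19.7% of the normal library.

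Of the secreted semaphorins, 4 lie in a row on the plus strand of mouse chromosome 5: Sema3d, Sema3a, Sema3e and Sema3c. No protein-coding gene lies between Sema3d and Sema3a, which are 536465 bases apart, 1 lies between Sema3a and Sema3e, and 16 lie in the 3.32 megabases between Sema3e and Sema3c (GENCODE release M21, GRCm38). As described next, Sema3d, Sema3a and Sema3e were higher in the tumour libraries and Sema3c was lower. The 250 bases before the RefSeq start of the first 3 genes are therefore shown 5′ to 3′, from RefSeq on GRCm38.p6, at chr5:12382916-12383165 for Sema3d, chr5:13396534-13396783 for Sema3a and chr5:14025026-14025275 for Sema3e. Capitals mark every match to 4 motifs, searched on both strands. The GC box is GGGCGG. The CCAAT box is searched as spelled in its name. The TATA box is TATAAA, and ACAAAG is a core recognised by SOX factors.
Sema3d: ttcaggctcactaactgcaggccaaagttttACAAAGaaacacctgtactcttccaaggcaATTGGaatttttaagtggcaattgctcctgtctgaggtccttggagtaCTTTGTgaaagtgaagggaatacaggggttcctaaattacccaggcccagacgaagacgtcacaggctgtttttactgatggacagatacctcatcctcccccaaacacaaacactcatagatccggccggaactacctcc
Sema3a: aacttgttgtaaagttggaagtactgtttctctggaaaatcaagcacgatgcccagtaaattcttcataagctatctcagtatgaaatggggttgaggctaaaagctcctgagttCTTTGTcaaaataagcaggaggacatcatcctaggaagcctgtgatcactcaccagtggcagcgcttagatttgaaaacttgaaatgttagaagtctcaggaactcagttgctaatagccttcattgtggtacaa
Sema3e: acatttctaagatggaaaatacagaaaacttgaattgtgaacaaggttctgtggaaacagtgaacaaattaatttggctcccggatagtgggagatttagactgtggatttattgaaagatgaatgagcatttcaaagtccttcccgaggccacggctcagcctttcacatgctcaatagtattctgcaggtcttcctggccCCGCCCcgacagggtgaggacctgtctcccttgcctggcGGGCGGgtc
The Sema3d window held 1 CCAAT and 2 ACAAAG matches, the Sema3a window 1 ACAAAG match, and the Sema3e window 2 GGGCGG matches. None of these 3 windows held TATAAA, which 12.4% of 32851 mouse promoter windows of this length contain; GGGCGG was in 32.7% of them, CCAAT in 33.8% and ACAAAG in 16.5%. Their GC content was 46.8%, 40.8% and 48%, against a median of 52.4%. The matching window of Sema3c (chr5:17574566-17574815) lies in an annotated exon and is not printed; it was 78.4% GC with 3 GGGCGG matches. The Sema3a window lies inside a longer GENCODE model of the gene. Of the 47 members with a RefSeq window, 37 held GGGCGG (78.7%), 17 held CCAAT and 7 held ACAAAG. A member counts here when any of its windows held the motif, while the shares above are of single windows. The member shares and the shares of all windows are therefore not on the same scale. A match is only a stretch of letters and shows no factor binding.

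Summed over all cells, tumour-bearing and normal brainstem differed in both directions among the guidance genes. All 53 members were tested, 6 were higher in the tumour libraries and 12 were lower (edgeR quasi-likelihood test, Benjamini-Hochberg adjusted p under 0.05, 2 libraries against 1). Over all 20449 genes tested, 21.5% passed this threshold, 13.1% higher and 8.36% lower. The median log2 change was −0.46 over the members and 0.14 over all genes. With scaling by library size alone, 6 members were higher and 20 lower. Secreted semaphorins went mainly up, with 4 of 7 higher and 1 lower, and Eph-A receptors went down, with 7 of 9 lower and 0 higher, and each of these 12 calls held with scaling by RLE (the median-ratio size factors of DESeq2) and by library size alone. In such sums, fewer cells of a type and less RNA per cell cannot be told apart, so the same genes are followed within cell classes below. The fitted log2 changes use scaling factors that correct for library composition and therefore differ from the plain ratio of CPM values.

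Sema3d, a secreted semaphorin, had the largest change of all members in this comparison. It stood at 280 CPM in tumour 1, 178 CPM in tumour 2 and 5.06 CPM in normal brainstem. Both tumour libraries lay far above the normal library, and the fitted log2 change was 6.04 (SE 0.48, adjusted p = 0.00722). Its UMIs came almost entirely from a single class: 38261 of 39333 in tumour 1 (97.3%) and 25087 of 25915 in tumour 2 (96.8%) lay in glial progenitor-like cells. Of the UMIs of all genes, this class held 99624924 of 140556302 in tumour 1 and 65781873 of 145962330 in tumour 2. In the normal library, 36 of the 56 Sema3d UMIs lay in fibroblast-like cells and 16 in neuron-like cells.

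The other 5 members that were higher in the tumour libraries were also carried mostly by glial progenitor-like cells, which held between 89.7% and 97.1% of their UMIs in each tumour library. The part of the UMIs of all genes in this class is given above. Sema3b stood at 7.71, 8.76 and 0.723 CPM (log2 change 4.07, SE 0.63, adjusted p = 0.016). Sema3a, an axon repellent, stood at 28.7, 20.5 and 6.78 CPM (2.41), and Sema3e, the ligand that binds plexin D1 directly, at 19.8, 12.6 and 4.61 CPM (2.36). Plxnb3, a plexin of oligodendrocytes, stood at 23.0, 17.0 and 3.98 CPM (2.88), and the receptor Ephb3 at 18.6, 12.9 and 3.70 CPM (2.64). Tumour 1, which holds more glial progenitor-like cells, lay above tumour 2 for all of these 6 genes but Sema3b.

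Within the glial progenitor-like class, the levels of the tumour libraries lay close together. Sema3d was first at 384 CPM in tumour 1 and 381 CPM in tumour 2. The membrane semaphorins Sema6a (94.9 and 75.1 CPM), Sema6d (52.0 and 46.2 CPM) and Sema5a (48.2 and 40.9 CPM) followed, with the plexins Plxnb2 (40.1 and 42.7 CPM) and Plxnb1 (34.7 and 34.6 CPM), Sema3a (38.7 and 40.8 CPM) and the receptor Epha5 (40.6 and 33.3 CPM). Of the 53 members, 24 reached 10 CPM in both libraries, 26 were under 10 CPM in both, and 9 of these were under 1 CPM. The class has 1 cell in the normal library, so no tumour-against-normal test of it could be made.

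The glial progenitor-like class held 4 clusters, which differed little in Sema3d. The cluster led by Pou3f1 and C1ql1 (2554 and 884 cells) had Sema3d at 415 and 398 CPM. A cluster led by Prss35 and Vegfa, with Vegfa at 1127 and 1010 CPM, had 346 and 375 CPM, and a cycling cluster led by Cenpf had 329 and 347 CPM. A small cluster led by Papss2 and Col6a1 (237 and 160 cells) was highest at 462 and 500 CPM. Sema5a varied more: it reached 62.0 and 56.5 CPM in the Pou3f1-led cluster against 29.4 and 38.3 CPM in the Vegfa-bearing cluster. Over the 35 members with at least 200 UMIs in each library, the highest cluster exceeded the lowest by a median of 1.45-fold in tumour 1 (range 1.14 to 3.25) and 1.76-fold in tumour 2 (range 1.13 to 4.47). These differences are descriptions of clusters in 2 libraries and carry no test.

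The neuropilins, the usual binding subunits for secreted semaphorins, were low in the cells that carried Sema3d and higher in endothelial-like, macrophage-like and microglia-like cells. In glial progenitor-like cells Nrp1 was at 5.1 and 9.8 CPM and Nrp2 at 3.0 and 4.2 CPM. The small Col6a1-led cluster had the most Nrp2 in both libraries, at 7.6 and 10.7 CPM, and the most Nrp1 in tumour 2, at 27.1 CPM. In endothelial-like cells Nrp1, which also serves as a VEGF co-receptor, was at 284, 300 and 273 CPM. Macrophage-like cells had Nrp1 at 208, 290 and 271 CPM and microglia-like cells at 118, 150 and 132 CPM. Nrp2 was at 136, 143 and 90.1 CPM in microglia-like cells and at 49.6, 67.8 and 164 CPM in fibroblast-like cells, so that a different one of these classes was higher in tumour and in normal tissue. Neutrophil-like cells had less of both, with Nrp1 at 9.40, 8.50 and 38.7 CPM and Nrp2 at 8.23, 10.5 and 0.40 CPM. In the order of Nrp1 levels, the ranges over libraries of endothelial-like, macrophage-like and fibroblast-like cells (189, 203 and 216 CPM) overlap from each class to the next, while microglia-like and neuron-like cells (50.8, 79.1 and 59.5 CPM) lay below them.

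**Figure D1:**
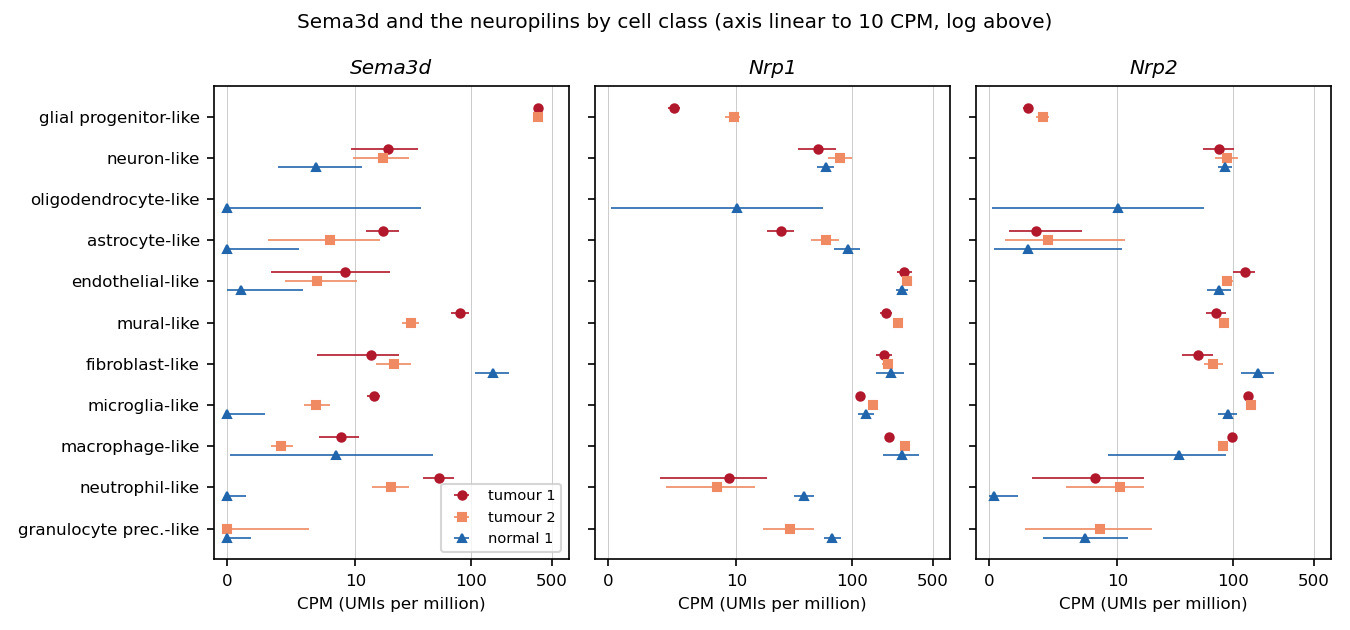
Levels of Sema3d, Nrp1 and Nrp2 (CPM; axis linear up to 10 CPM and logarithmic above) in each cell class, with a point per library and bars for the 95% Poisson interval of the count. Sema3d peaks in glial progenitor-like cells at 384 and 381 CPM, where Nrp1 is at 5.1 and 9.8 CPM, and Nrp1 is highest in endothelial-like cells at 273 to 300 CPM.

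Sema3d UMIs also appeared in immune cells of the tumour libraries. In microglia-like cells Sema3d was at 14.4 and 6.94 CPM in the tumour libraries and had 0 UMIs in the normal library, where the floor of 3 counts is 2.37 CPM, so its tumour mean was at least 4.50-fold higher (adjusted p = 0.00117). In neutrophil-like cells it was at 52.9, 20.3 and 0 CPM, at least 30.2-fold higher (adjusted p = 0.00346). Marker transcripts of glial progenitors appeared in these cells too. The microglia-like level of Sema3d was 3.75% and 1.82% of the glial progenitor-like level in tumour 1 and tumour 2, against 3.85% and 1.83% for Pdgfra, 4.57% and 1.86% for Olig2 and 5.17% and 4.58% for Cspg4. In neutrophil-like cells it was 13.8% and 5.32%, against 13.6% and 3.29% for Pdgfra and 11.9% and 6.22% for Olig2. Summed over the 10 glial progenitor markers, all of which had UMIs in these cells of both tumour libraries, the level in neutrophil-like cells was 525 and 175 CPM against 6.05 CPM in normal. The share of Sema3d lay near that of Pdgfra in microglia-like cells of both libraries and in neutrophil-like cells of tumour 1, and between those of Pdgfra and Olig2 in neutrophil-like cells of tumour 2. It is not read here as expression by these immune cells.

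Endothelial-like cells had more called members than any other of the 10 classes tested. Of the 26 members tested, 8 were higher and 5 were lower in the tumour libraries, where 30.5% of 10010 genes passed the threshold (18.3% higher, 12.2% lower). The median log2 change was 0.37 over the tested members and 0.02 over all genes. The class held 54, 172 and 146 cells.

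The members that fell in endothelial-like cells included a secreted ligand, an Eph receptor and an ephrin. Sema3c, a secreted semaphorin that was the highest member of this class in the normal library only, stood at 223, 242 and 950 CPM. Both tumour libraries lay far below the normal library, with a log2 change of −1.76 (SE 0.23, adjusted p = 9.22e-07). With doublets kept, its tumour levels were 98.9 and 117 CPM. Epha4, a receptor for both ephrin classes, stood at 23.0, 29.0 and 128 CPM (−1.96, SE 0.29, adjusted p = 6.91e-06). Sema5a stood at 13.8, 8.94 and 54.3 CPM (−2.15), Efnb2, the ephrin of arterial endothelium, at 13.8, 22.3 and 60.7 CPM (−1.34), and Sema6a at 117, 120 and 241 CPM (−0.76, adjusted p = 0.0193).

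Those that rose included the vascular plexin and secreted semaphorins near zero in normal cells. Plxnd1, the endothelial receptor for Sema3e, stood at 416, 271 and 89.5 CPM (log2 change 2.19, SE 0.30, adjusted p = 2.68e-06). Sema6d stood at 226, 196 and 100 CPM (1.33), Sema4c at 39.9, 43.0 and 18.1 CPM (1.47) and Plxnb2, a receptor for class 4 semaphorins, at 33.8, 39.9 and 10.7 CPM (2.09). Sema3f, Efnb3 and Sema4d each had 1 UMI in the normal cells. Sema3f stood at 46.1 and 44.4 CPM in the tumour libraries against 1.07 CPM, a 41.9-fold ratio of pooled levels (95% counting interval 7.43 to 1665). Efnb3 stood at 26.1 and 36.6 CPM, with a ratio of 32.8 (5.80 to 1305), and Sema4d at 9.22 and 13.4 CPM, with a ratio of 12.0 (2.06 to 482; log2 change 3.67, and 1.82 without tumour 2). Sema3a, with 8, 35 and 0 UMIs, was at 12.3 and 9.77 CPM, at least 3.45-fold above the normal floor of 3.20 CPM. Its endothelial-like level was 31.8% and 24.0% of its glial progenitor-like level, above the 2.88% and 1.98% of Pdgfra and the 10.2% and 12.5% of Cspg4. Mural-like cells had Sema3a at 20.4 and 23.3 CPM and fibroblast-like cells at 23.7 and 43.5 CPM in the tumour libraries. The part of RNA from these cells in the endothelial-like level was not tested.

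**Figure D2:**
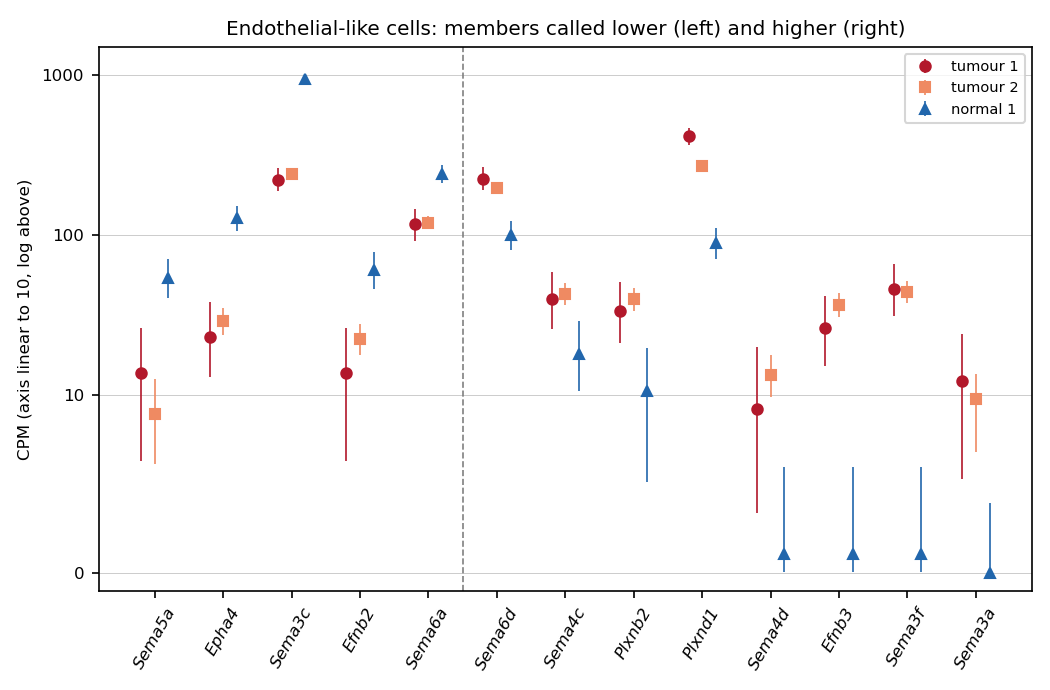
Levels of the 13 members called in endothelial-like cells (CPM; axis linear up to 10 CPM and logarithmic above), with a point per library and bars for the 95% Poisson interval of the count. Sema3c, for example, is at 223 and 242 against 950 CPM. The genes were picked by the test on these same libraries, so the side on which the tumour points lie adds no support.

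The 2 neuropilins were not among the called genes in this class. Nrp1 had a log2 change of 0.37 (adjusted p = 0.262) and Nrp2, at 126, 89.1 and 75.6 CPM, of 0.72 (adjusted p = 0.069). Sema7a, a GPI-anchored semaphorin, stood at 287, 274 and 427 CPM (−0.34, adjusted p = 0.285), and Plxna2 at 218, 210 and 183 CPM (0.49, adjusted p = 0.142).

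The endothelial-like class was made of clusters that the libraries filled unequally. In tumour 2, a cluster of 35 cells led by the barrier transporter Slco1a4 lay near the main normal cluster of 143 cells, led by Cxcl12 and Slco1a4, in Sema3c and Epha4 and below it in Plxnd1 and Sema6d. Sema3c was at 1040 against 929 CPM, Epha4 at 99.4 against 124 CPM, Plxnd1 at 37.7 against 88.0 CPM, Sema6d at 37.7 against 100 CPM and Sema3f at 3.4 against 1.1 CPM. A cluster of 54 tumour 2 cells led by Ctla2a, Ccn2 and Apln, with the sprouting gene Angpt2 at 1187 CPM, had the other pattern, with Sema3c at 10.6, Epha4 at 9.3, Plxnd1 at 397, Sema6d at 288 and Sema3f at 66.3 CPM. Within tumour 2, these clusters thus differed in the same direction as tumour and normal did for these 5 genes. This is a description of 1 library, and no test compares its clusters.

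Markers of other cells moved with the groups in this class. The 10 glial progenitor markers summed to 194, 211 and 201 CPM, but different markers made up these sums. Olig2, Sox10, Lhfpl3 and Neu4 had no UMIs in the normal cells, while Olig2 had 7 and 50 UMIs in the tumour libraries. The list also holds Cspg4, which mural-like cells carried at 245 and 281 CPM. The similar sums are therefore not read as equal glial progenitor RNA. The 9 mural markers summed to 900 and 1215 CPM in the tumour libraries against 5749 CPM in normal, and the 10 microglia markers, all detected, to 808 and 1437 CPM against 218 CPM. The 9 astrocyte markers, all detected, summed to 399 and 563 CPM against 1243 CPM and the 10 neuron markers to 163 and 133 CPM against 387 CPM. Epha4, called lower here, was at 201 CPM in normal astrocyte-like cells. A tumour cluster of 22 cells in tumour 2 carried Csf1r, a macrophage receptor, at 1149 CPM, Sema4d at 65.0 CPM and Plxnb2 at 148 CPM. Without it, 8 members were higher and 4 lower of 25 tested; the calls of Plxnb2 (log2 change 1.05, adjusted p = 0.205) and Sema6a (−0.57, adjusted p = 0.118) were lost and Sema4d was no longer tested. The part of mural, astrocyte and neuron RNA in the other changes was not tested. DESeq2 called 6 members, 4 higher and 2 lower. The shares of all genes passing by DESeq2 and without the Csf1r-bearing cluster are not given here. A loss of member calls can therefore not be told from a loss of calls over all genes.

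Mural-like cells were named from markers of pericytes and smooth muscle of the vessel wall. Only the tumour libraries held cells of this class (42 and 106), so no comparison with normal was made. Mural marker RNA was not absent from the normal library, where the 9 markers summed to 5749 CPM in endothelial-like cells. The highest members of the mural-like class were Plxnd1 in tumour 1 and Sema6d in tumour 2. Plxnd1 was at 303 and 272 CPM, Sema6d at 271 and 431 CPM, Nrp1 at 198 and 249 CPM and Sema7a at 117 and 115 CPM. Most of these counts came from a cluster led by Nid1 and Vtn, with a median of 78087 UMIs per cell and the endothelial gene Cldn5 at 1693 and 1712 CPM. The Acta2-led cluster, with Cldn5 at 28.5 CPM in tumour 2, had Sema6d at 132, Plxnd1 at 53.4 and Nrp1 at 39.2 CPM. The 9 endothelial markers all had UMIs in the mural-like class and summed to 3679 and 4185 CPM. The 9 mural markers themselves summed to less there, at 2174 and 3982 CPM. Mural and endothelial RNA therefore cannot be told apart in the first of these clusters. With doublets kept, the clusters were drawn differently and the class stood at 133 CPM for Sema6d and 38.5 CPM for Nrp1 in tumour 2.

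In fibroblast-like cells 3 members were higher and 7 lower of 26 tested, where 16.5% of 9962 genes passed (9.61% higher, 6.85% lower). The median log2 change was −0.81 over the tested members and 0.12 over all genes. The class held 42, 109 and 51 cells. Sema3d ran opposite to its whole-library change here, at 13.5, 21.8 and 155 CPM (log2 change −3.05, SE 0.43, adjusted p = 0.00147). With doublets kept, that change was −1.64 (adjusted p = 0.071) and no longer passed. The receptor Plxna2 stood at 11.3, 22.4 and 186 CPM (−3.35, adjusted p = 0.00105), Sema3c at 2.25, 10.6 and 90.7 CPM (−3.60) and the ligand Efna5 at 2.25, 4.97 and 60.5 CPM (−3.88). Nrp2 stood at 49.6, 67.8 and 164 CPM (−1.44, adjusted p = 0.0276; 0.0502 with doublets kept). Plxnd1 rose, at 176, 127 and 21.6 CPM (2.83, adjusted p = 0.00782), as did Sema6d at 182, 257 and 47.5 CPM (2.24, adjusted p = 0.0103). Sema4c had 1 UMI in normal and a ratio of 12.3 (2.18 to 491). Without tumour 1, the log2 changes of Plxna2, Sema3c and Efna5 were −2.74, −2.67 and −2.94, and that of Efna5 was −3.29 without tumour 2. The receptors Epha3 (−3.42, adjusted p = 0.046) and Epha7 (−3.22, adjusted p = 0.0387) were also lower, each with 9 normal UMIs. Without tumour 1 their log2 changes were −2.34 and −2.47, that of Epha7 was −2.44 without tumour 2, and both calls were lost with doublets kept (adjusted p = 0.0916 and 0.0543).

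The fibroblast-like class did not hold the same cells in both groups. Its 8 markers summed to 4324 and 5413 CPM in the tumour libraries against 79921 CPM in normal, while the 9 mural markers summed to 1535 and 1669 CPM against 371 CPM. The 9 astrocyte markers summed to 438 and 435 CPM against 1619 CPM. A cluster led by Col1a1 held 29 and 41 tumour cells and fewer than 20 normal cells. Sema3d was at 3.56 and 7.12 CPM there, against 92.3 CPM in the tumour 2 cells and 195 CPM in the normal cells of a Ccn3-led cluster. Without the Col1a1-led cluster, 13, 68 and 49 cells remained and 2 members were higher and 0 lower of 13 tested. The share of all genes passing in this setting is not given here. Nrp2 then had a log2 change of 0.48 (adjusted p = 0.927), Sema3d of −0.82 (adjusted p = 0.726) and Plxna2 of −1.82 (adjusted p = 0.0617).

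In microglia-like cells, the resident immune cells of the brain, 3 members were higher and 8 lower of 42 tested, where 22.3% of 14607 genes passed (14.3% higher, 7.96% lower). With scaling by library size alone, 1 member was higher and 10 were lower. The median log2 change was −0.17 over the tested members and 0.08 over all genes. Plxnb2 was the highest member at 199, 244 and 200 CPM. Plxna4, a plexin that pairs with neuropilins, stood at 18.3, 18.8 and 90.1 CPM (log2 change −1.82, SE 0.25, adjusted p = 8.23e-05). Sema4b stood at 7.05, 4.51 and 38.7 CPM (−2.31, adjusted p = 0.000245), Sema6d at 2.39, 4.69 and 26.9 CPM (−2.41, adjusted p = 0.0018), Efnb1 at 8.75, 8.67 and 41.9 CPM (−1.80), Sema4g at 8.44, 11.6 and 34.0 CPM (−1.28) and Efnb2 at a log2 change of −2.24. Nrp2 rose, at 136, 143 and 90.1 CPM (1.10, SE 0.26, adjusted p = 0.0054), and so did Epha2, at 13.3, 11.5 and 3.95 CPM (2.10, adjusted p = 0.00862). Sema3d, described above, is the third.

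Markers of other cells and the kind of microglia also differed between the groups. The 10 neuron markers summed to 95.6 and 131 CPM in the tumour microglia-like cells and to 1110 CPM in the normal ones. Epha10, at 0.126, 0.352 and 4.74 CPM (−3.68; −2.70 without tumour 1), stood at 2.12% of its neuron-like level in the normal library, against 9.71% for Snap25 and 1.89% for Meg3. Sema3c, at 0.504, 0.423 and 4.74 CPM (−2.88, adjusted p = 0.0498), stood at 0.50% of its endothelial-like level, against 0.42% for Cldn5. Cldn5 is the only endothelial gene set beside Sema3c here. The part of neuron and endothelial RNA in the levels of Epha10 and Sema3c was not tested. Neither level is read here as expression by microglia-like cells. With only the clusters led by P2ry12, a gene of resting microglia (32, 929 and 634 cells), 14 members were tested; Plxna4 (−1.19) and Sema6d (−1.38) were still lower and Sema3d higher, and no other member passed. Scaling by library size alone ended the calls of Nrp2 (0.63, adjusted p = 0.0747) and Epha2 (1.64, adjusted p = 0.0602).

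Macrophage-like cells had 1 called member of 26 tested, where 2.18% of 12857 genes passed; 4 members had an unadjusted p under 0.05. Nrp1 was the highest member, followed by Plxnb2 at 90.7, 108 and 102 CPM. Sema6d stood at 7.76, 5.45 and 67.8 CPM (−2.93, SE 0.61, adjusted p = 0.0371), with 8 UMIs in the 33 normal cells. The call was lost with RLE scaling (adjusted p = 0.0563) and under the stricter cell filter (adjusted p = 0.0615). Markers of other cells moved with it: the 10 neuron markers summed to 37.6 and 74.4 CPM in the tumour libraries against 610 CPM in normal, with 5 of them at 0 there, and the 9 astrocyte markers to 53.8 and 28.4 CPM against 407 CPM. Normal astrocyte-like cells had Sema6d at 351 CPM, and the part of astrocyte RNA in this change was not tested.

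Neutrophil-like cells carried mainly membrane semaphorins. Sema4a, a semaphorin of immune cells, stood at 118, 220 and 121 CPM, the semaphorin receptor Plxnc1 at 83.4, 119 and 109 CPM and Sema4d, a semaphorin of lymphocytes, at 98.7, 138 and 72.6 CPM. Of 14 members tested, 2 were higher and 1 lower, where 14.5% of 9808 genes passed (6.75% higher, 7.71% lower). The higher ones were Sema3d, described above, and Sema6b, at 45.8, 52.3 and 4.03 CPM (3.01, SE 0.48, adjusted p = 0.00315). Nrp1 was lower, at 9.40, 8.50 and 38.7 CPM (−2.70, adjusted p = 0.00284). A cluster led by Camp, a granule gene of immature neutrophils, held 335 normal cells and 34 cells of tumour 1, and had Sema6b at 2.5 and 4.3 CPM. The Cxcr2-led cluster of mature neutrophils (289, 478 and 206 cells) had Sema6b at 61.6, 60.3 and 11.3 CPM. Without the Camp-led cluster, Sema6b was still higher (1.80, adjusted p = 0.0296) and Nrp1 no longer passed (−2.53, adjusted p = 0.155).

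Of the 9 Eph-A receptors, 7 were lower in the tumour libraries when all cells were summed. Epha6 stood at 0.213, 0.144 and 9.03 CPM (log2 change −5.10, SE 0.62, adjusted p = 0.0116). Epha10, a kinase-inactive family member, stood at 1.34, 2.02 and 48.3 CPM (−4.28, SE 0.43, adjusted p = 0.00914) and Epha7 at 0.783, 1.06 and 25.1 CPM (−4.20, adjusted p = 0.011). Epha8 (−4.83; −4.13 without tumour 2), Epha3 (−2.63), Epha4 (−2.10) and Epha5 (−1.43, adjusted p = 0.0428) were lower too. The summed level of the 9 Eph-A receptors was 43.0, 35.3 and 236 CPM, with both tumour libraries below the normal one.

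Within neuron-like cells the 9 receptors summed to 931, 841 and 912 CPM in the 3 libraries. Epha5 stood at 428, 384 and 443 CPM (log2 change −0.05, SE 0.28), Epha10 at 296, 290 and 224 CPM (0.47, SE 0.30) and Epha7 at 70.1, 74.5 and 103 CPM (−0.43, SE 0.33). Lower receptors varied more, with Epha6 at 47.3, 19.8 and 41.2 CPM (−0.29, SE 0.42) and Epha8 at 29.8, 10.5 and 20.0 CPM (0.00, SE 0.65), and for these the groups overlapped. Of 43 members tested in neuron-like cells, 0 passed by edgeR, 0 by DESeq2 and 0 had an unadjusted p under 0.05, where 4.38% of 10978 genes passed (3.47% higher, 0.911% lower). With 2 libraries against 1, changes of several fold in this class can miss the threshold, so 0 calls does not show equality. The standard errors above give the precision of these differences under a fitted spread shared over genes. In the normal library 93.1% of Epha5 UMIs lay in neuron-like cells, while in the tumour libraries 89.9% and 81.3% lay in glial progenitor-like cells. Of the UMIs of all genes, neuron-like cells held 2303227 of 11068572 in normal. Glial progenitor-like cells held 99624924 of 140556302 in tumour 1 and 65781873 of 145962330 in tumour 2.

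**Figure D3:**
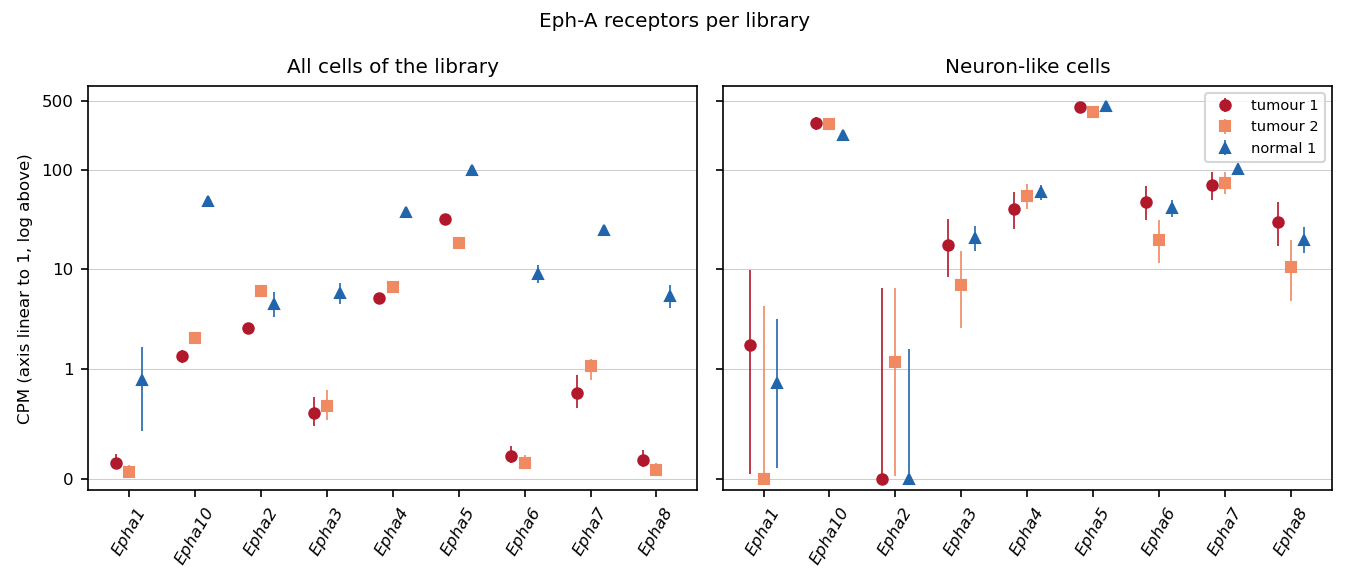
Levels of the 9 Eph-A receptors per library (CPM; axis linear up to 1 CPM and logarithmic above), over all cells on the left and in neuron-like cells on the right, with 95% Poisson intervals of the counts. Over all cells the normal library lies above both tumour libraries for the 7 receptors that were called from these same values. In neuron-like cells the order of the libraries differs from gene to gene, with Epha5 at 428, 384 and 443 CPM and Epha6 at 47.3, 19.8 and 41.2 CPM.

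Of the remaining members lower over all cells, Sema3c stood at 2.30, 7.65 and 86.1 CPM (−3.52, adjusted p = 0.027; −2.83 without tumour 1 and −4.59 without tumour 2), and 93.6% of its normal UMIs were in endothelial-like cells. Sema4a stood at 6.1, 8.34 and 77.2 CPM (−2.85, adjusted p = 0.0117). In normal, 299 of its 854 UMIs lay in neutrophil-like and 235 in granulocyte precursor-like cells. These classes made up 17.5% and 8.92% of normal cells, against 3.06% and 0.133% in tumour 1 and 5.27% and 0.532% in tumour 2. Within neutrophil-like cells Sema4a stood at 118, 220 and 121 CPM (−0.08, edgeR adjusted p = 0.908). Without the granulocyte and B-like classes, it was still lower over all cells (−2.36, edgeR adjusted p = 0.00984). Ephb6, Sema6c and Plxna4 had log2 changes of −2.18, −2.00 and −1.78.

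Classes were ranked by the mean level over the libraries with at least 50 cells of the class, so that mural-like cells rest on tumour 2, oligodendrocyte-like cells on normal and fibroblast-like cells on tumour 2 and normal. By this measure neuron-like cells had the highest mean level for 16 of the 53 members, endothelial-like cells for 9, oligodendrocyte-like cells for 7 and glial progenitor-like cells for 2, Sema3d and Sema3e. Some ranks are close, such as Sema3a at a mean of 41.2 CPM in fibroblast-like and 39.8 CPM in glial progenitor-like cells. Oligodendrocyte-like cells, the myelinating cells, were numerous enough in the normal library alone (84 cells). Their highest members were the ligand Efnb3 at 432 CPM, Plxnb3 at 221 CPM, Sema4d at 211 CPM and Plxnb1, the receptor for Sema4d, at 181 CPM. The class summed to only 99643 UMIs there, so its levels and ranks rest on few counts of each gene. Its rank for Sema4c was close, at 80.3 CPM against 62.8 CPM in mural-like cells. In the tumour libraries, glial progenitor-like cells had Plxnb3 at 30.9 and 34.6 CPM and Efnb3 at 7.91 and 6.46 CPM.

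Astrocyte-like cells had Sema6d at 270, 252 and 351 CPM, Epha4 at 127, 148 and 201 CPM, Plxnb1 at 158, 130 and 182 CPM and Sema4b at 111, 128 and 122 CPM. Of 20 members tested, Nrp1 alone passed, at 24.3, 59.3 and 91.6 CPM (−1.32, SE 0.37, adjusted p = 0.0477; −0.61 without tumour 1; adjusted p = 0.0708 with RLE scaling), where 3.97% of 9780 genes passed (1.73% lower). DESeq2 did not call it. In B-like, choroid plexus-like and T or NK-like cells, 2, 1 and 3 members were tested by edgeR and 0 passed, where 11%, 0.334% and 3.55% of genes did (5.98%, 0.334% and 1.63% lower, 5%, 0% and 1.92% higher); 0, 0 and 1 had an unadjusted p under 0.05, and DESeq2 called 0 in each.

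Genes that act with these families were followed in 6 lists. Over all cells, collapsin response mediators and MICAL enzymes had 1 higher and 2 lower of 8 tested genes, exchange factors and GTPases 2 higher and 1 lower of 12, and other semaphorin partners 1 higher and 3 lower of 8, where 13.1% of all genes were higher and 8.36% lower. Adaptors and kinases below Eph receptors had 4 of 11 tested genes higher and 0 lower, among them the kinase Fyn at 311, 185 and 44.0 CPM (3.04). Slits and robos, another guidance pair, had 0 higher and 4 of 7 lower, with Slit2 at 2.66, 1.97 and 44.7 CPM (−3.72). Netrins and their receptors had 3 higher and 2 lower of 11, with Ntn4 at 42.0, 27.6 and 3.16 CPM (4.00) and Ntng1 at 2.40, 1.89 and 44.9 CPM (−3.84). In endothelial-like cells, Ntn1 stood at 6.14, 8.66 and 71.4 CPM (−2.87), the integrin Itgb1 at 937, 928 and 490 CPM (1.20) and the endosomal GTPase Rhod at 58.4, 44.7 and 8.52 CPM (2.79). In fibroblast-like cells, Itga1, an integrin that binds Sema7a, stood at 1018, 826 and 21.6 CPM (5.44), Unc5b at 261, 203 and 17.3 CPM (3.77) and Slit2 at 4.51, 30.5 and 419 CPM (−4.39). In neuron-like cells Itga1 was the only gene of the 6 lists that passed, at 12.3, 66.3 and 4.78 CPM (3.19). Markers of other cells were also highest in tumour 2 there. Mural markers summed to 5.26, 43.1 and 21.7 CPM and microglia markers to 131, 561 and 179 CPM. The part of RNA from other cells in this change was not tested.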

How the data were processed

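The values deposited by the authors are raw UMI counts, whole numbers for each gene in each cell barcode. Per the file headers the software was Cell Ranger 6.1.2, and the submitters' processing notes name the build mm10. The total counts were 151906460, 157114723 and 15035292 UMIs in tumour 1, tumour 2 and normal.

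Barcodes with at least 500 UMIs, 300 genes and at most 15% mitochondrial UMIs were kept, and doublets called by Scrublet in scanpy 1.11.5 (375, 238 and 46 cells) were removed. Cells were clustered with the Leiden method at resolution 1 without the members. Clusters were named from 18 marker lists by a score with a minimum of 1 and at least 3 detected markers. The naming score and a second clustering round of the vessel cells (resolution 0.4) were set after seeing the data. A total of 1720, 1073 and 196 cells stayed unnamed. Classes were rebuilt here and may differ from the authors' own.

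UMIs were summed per class and library, and classes with at least 20 cells in all 3 libraries went into edgeR 4.0.16 (quasi-likelihood test, filterByExpr, TMM scaling, R 4.3.3). Benjamini-Hochberg adjustment ran over all genes tested. With 2 libraries against 1, the single residual degree of freedom comes from the tumour pair, and the normal library is assumed to vary like it. An exact permutation could not give a p under 1 in 3. The test also pools the spread of each gene with that of the other genes. Against the 1 residual degree of freedom, this prior carried 4.42 over all cells, 26.7 in endothelial-like and 91.1 in neuron-like cells. In B-like and T or NK-like cells it was infinite. The p-values and standard errors therefore rest mostly or wholly on a spread shared over genes, estimated from these libraries alone. Poisson and binomial 95% intervals and the floor of 3 counts cover counting error only. The scripts were tested on simulated counts.

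The members and lists were chosen with earlier results of these data known. Named are the 8 highest members of the glial progenitor-like class and the 4 highest of the other classes, up to 12 called members per comparison by size of change, and up to 3 called genes per pathway list. Sema3e, Ephb6 and Sema6c, and Epha4, Epha5 and Plxna4 over all cells, were named beyond that after their values were seen. Promoter windows come from RefSeq (GRCm38.p6) and gene positions from GENCODE M21, and 47 of 53 members had a window. Alternatives were other scalings, no low-count filter, DESeq2 1.42.0, thinning to equal depth, other cell filters, doublets kept, resolution 2, members allowed in clustering, leaving out a tumour library, and 5 settings added after seeing the data that left out clusters or classes.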

Additional observations from a re-analysis of the deposited data

Results flagged for a closer look

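Some members changed in opposite directions in different cell classes under the same contrast of tumour-bearing with normal brainstem. None of these differences between classes was tested. Sema6d, a membrane semaphorin, had log2 changes of 1.33 in endothelial-like and 2.24 in fibroblast-like cells, and of −2.93 in macrophage-like and −2.41 in microglia-like cells. Its macrophage-like call rested on 8 UMIs in the normal library and was lost with RLE scaling and under the stricter cell filter. Astrocyte markers moved with it there, at 53.8 and 28.4 CPM against 407 CPM. The fibroblast-like class did not hold the same cells in both groups, and without its Col1a1-led cluster the Sema6d change was 2.66. Sema3d had a log2 change of −3.05 in fibroblast-like cells and was at least 4.50-fold higher in microglia-like and at least 30.2-fold higher in neutrophil-like cells of the tumour libraries. Its levels in those 2 immune classes are set beside those of glial progenitor markers in the report, and its fibroblast-like call was lost with doublets kept. Nrp2 had a log2 change of −1.44 in fibroblast-like and 1.10 in microglia-like cells, and the fibroblast-like value turned to 0.48 without the Col1a1-led cluster. Its microglia-like call was lost with scaling by library size alone (0.63) and in the P2ry12-led clusters (0.29).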

How the results depend on the processing

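Of the log2 changes of called members under alternatives, 510 kept their direction and side of the threshold, or moved by less than the spread, 46 kept their direction and lost the call, 44 values from leaving out a tumour library moved, and 1 reversed. The reversal is Nrp2 in fibroblast-like cells, at 0.48 without the Col1a1-led cluster, a setting added after seeing the data. That Col1a1-led cluster holds mostly tumour cells.

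The number of called members moved by more than 1.5 times as follows, and where no cell or gene filter changed, the cause was not tested. The shares of all genes passing are not given beside these counts, so they do not separate members from all genes. DESeq2 called 0 in astrocyte-like, 6 in endothelial-like, 5 in fibroblast-like and 7 in microglia-like cells. In astrocyte-like cells 2 were called with library size alone, 2 without the low-count filter, 2 after thinning and 0 with RLE size factors. In macrophage-like cells 2 were called without the low-count filter, and 0 with RLE size factors, after thinning or under the stricter cell filter. With doublets kept, the counts were 3 in astrocyte-like, 6 in fibroblast-like, 1 in neuron-like and 5 in neutrophil-like cells. In neutrophil-like cells 0 were called of 3 tested under the stricter cell filter and 0 of 4 at resolution 2, where the class lost its Cxcr2-led cells. The added settings gave 2 in fibroblast-like cells without the Col1a1-led cluster and 3 in the P2ry12-led microglia-like clusters.

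Scaling by library size alone shifted the balance over all genes from 2680 higher and 1710 lower to 1686 and 3798 for the whole library, from 1828 and 1223 to 1211 and 1671 in endothelial-like, from 2093 and 1162 to 953 and 2432 in microglia-like and from 662 and 756 to 1682 and 362 in neutrophil-like cells. The median log2 change of all genes moved from 0.14 to −0.42, from 0.02 to −0.24, from 0.08 to −0.38 and from 0.06 to 0.64. The members then stood at 6 higher and 20 lower, 8 and 5, 1 and 10, and 3 and 1. Epha5 over all cells lost its call without the low-count filter (adjusted p = 0.0518). Of the CPM levels, 452 stayed within the spread and 64 moved, as with endothelial-like Sema3c, which fell from 223 and 242 to 98.9 and 117 CPM with doublets kept.

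No paired analysis was possible because the normal group is a single library and no label ties it to a tumour library. Leaving out a tumour library leaves 1 against 1, which gives a value with no test; all 114 such values kept their direction and 24 lay more than 1.5-fold from the fitted value. The normal library has the fewest UMIs and no replicate, so its low counts limit every ratio in small classes.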
